A study of Mus musculus with 2 samples.

Results

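The 10 macrophage surface marker genes described here are *Itgam*, *Itgax*, *Cd14*, *Cd68*, *Emr1*, *Mpeg1*, *Msr1*, *Mrc1*, *Cd163* and *Marco*. They were chosen by name, and all 10 were found among the 22605 genes of the deposited DNase I hypersensitivity (DHS) table. DHS-seq treats nuclei with a limited amount of DNase I, an enzyme that cleaves accessible DNA before packed DNA, and the small fragments between cuts are sequenced. One library came from untreated M1 cells, a murine myeloid progenitor line derived from leukemia, and 1 from M1 cells grown with the cytokine IL-6, given in the labels as 4 to 5 days. Both libraries were from passages 15 to 18 of the same line, in medium with horse serum, and the text on DHS-seq gives no time of treatment. For each transcript the table lists the mean reads of the 700-bp windows touched by its coding span (start codon to stop codon, introns included), and the longest listed span stands for each gene. With 1 library per condition, no difference below has a replicate check and no p-value was made. The 95% intervals are Clopper-Pearson intervals for ratios and exact Poisson intervals for levels, and they cover counting error only.

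Macrophages recognize their surroundings through surface receptors. Integrins of the beta-2 family hold cells to endothelium and to opsonized particles, scavenger and mannose receptors take up modified lipoproteins, glycoproteins and microbes, and CD14 hands lipopolysaccharide to Toll-like receptor signaling. CD68 and the product of *Mpeg1* lie largely in the endosomes and lysosomes of the phagocyte, and F4/80, the product of *Emr1*, is an adhesion G protein-coupled receptor used to stain mouse macrophages. M1 cells are known to differentiate toward macrophages when IL-6 is added. DNase I signal measures how open chromatin is, not how much mRNA a gene makes.

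In untreated M1 cells the 10 genes spanned a 53.0-fold range of DNase I signal. The gene with most signal was *Cd68*, with 129 reads per window, higher than in 98.9% of all genes. *Cd14* followed with 50.7 reads per window and *Mpeg1* with 27.0. *Itgax* (12.9) and *Itgam* (9.29) were also above the median gene, which had 7.75 reads per window. The other 5 genes were below it, with *Marco* at 6.64, *Mrc1* at 5.99, *Cd163* at 4.24, *Emr1* at 2.75 and *Msr1* at 2.43 reads per window. The 3 strongest genes have short coding spans of 3 or 4 windows close to the start of the gene, whereas the spans of the others cover 30 to 178 windows that are mostly intron. In this order, the intervals of *Marco* and *Mrc1* overlapped, as did those of *Emr1* and *Msr1*, and those of all other neighbors did not.

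In IL-6-treated cells, with the scaling that the table carries, the range among the 10 genes was 9.36-fold. *Cd68* was still the first, with 26.0 scaled reads per window, but its interval overlapped that of *Cd14* (20.4). The intervals of *Cd14* and *Mpeg1* (14.3) and of *Mpeg1* and *Itgax* (12.4) overlapped as well. *Marco* (9.56) and *Cd163* (7.01) stood above *Itgam* (6.91) and *Mrc1* (4.77), although *Cd163* and *Itgam* could not be told apart. *Emr1* (3.40) and *Msr1* (2.77) remained the lowest, with overlapping intervals. Ranks within a library do not depend on a scaling factor. *Cd163* went from above 26.4% of all genes to above 41.7%, and *Marco* from above 43.1% to above 60.0%. *Itgam* went from above 58.2% to above 40.9%, and *Mrc1* from above 38.4% to above 24.9%.

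**Figure D1:**
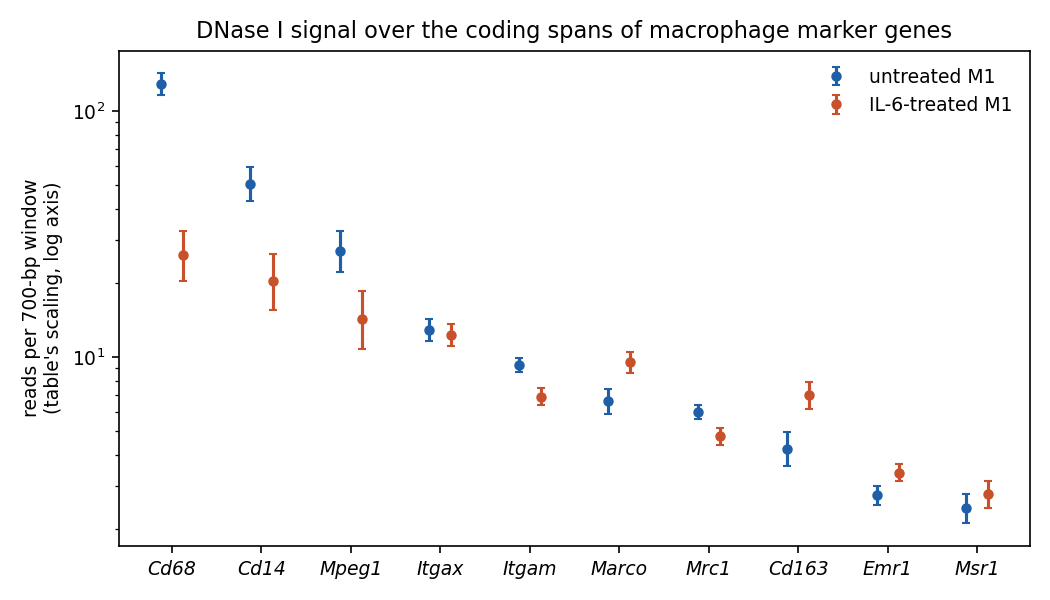
Mean DNase I signal over the coding span of each marker gene, in reads per 700-bp window on a log axis, for untreated (blue) and IL-6-treated (orange) M1 cells, 1 library each. Bars are 95% Poisson intervals of the reads. From left to right the untreated level goes from 129 (Cd68) to 2.43 (Msr1), and the orange points span the narrower range from 26.0 to 2.77.

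With the scaling of the table, 5 of the 10 genes had an interval of the ratio of IL-6-treated to untreated cells wholly below 1, of which 4 are above 1 with the strong-window scaling given below, and 3 had one wholly above 1. Of the 18472 genes tested, which had over 21 scaled reads in at least 1 library, 34.4% were wholly below 1 and 29.0% wholly above it. The lower genes were *Cd68*, *Cd14*, *Mpeg1*, *Itgam* and *Mrc1*, the higher genes were *Cd163*, *Marco* and *Emr1*, and *Itgax* and *Msr1* had intervals that include 1. At least 2-fold lower signal was found for *Cd68* and *Cd14*, against 13.4% of all genes tested. No marker gene was at least 2-fold higher, against 1.69% of all genes tested. The median log2 ratio of the 10 genes was -0.20, and that of all genes tested was 0.03. These directions hold for the scaling of the table. With a scaling on 544 single windows of at least 22 reads in both libraries, which shifts every log2 ratio by 1.83, *Cd68* alone had an interval below 1 and the other 9 genes had intervals above 1.

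The change was not the same at all levels of signal. Genes of the whole table were placed in classes by their mean over both libraries, in the scaling of the table. Strong-window scaling would raise these means by unequal amounts, and the classes were not recomputed with it. In the class under 3 reads per window the median log2 ratio was 0.47, and it was 0.30 from 3 to 6, 0.12 from 6 to 12, -0.26 from 12 to 24, -1.20 from 24 to 48 and -1.87 from 48 reads upward. The marker genes were spread over these classes. *Cd14*, in the class with 24 to 48 reads, was lower by about as much as its class, with a log2 ratio above that of 43.4% of 1371 genes. *Emr1* was likewise near the middle of its class (51.0% of 3454 genes were lower). *Itgax* was above 60.6% and *Mpeg1* above 18.996% of the 4780 genes with 12 to 24 reads. *Msr1*, with a ratio over 1 in its longest span and an interval that includes 1, was above only 23.8% of the 1129 genes under 3 reads. *Cd163* was above 91.3% of the class of *Emr1* and *Mrc1* above 10.5% of it. *Marco* was above 85.7% and *Itgam* above 16.8% of the 7174 genes with 6 to 12 reads. *Cd68* was above 15.2% of the 564 genes with 48 reads or more, 95.4% of which were at least 2-fold lower. Across the 10 genes, Spearman's rho between level and log2 ratio was -0.75, and across the 18472 genes tested it was -0.54. Both are descriptions over genes that share the same pair of libraries. The part of this trend in the values of single marker genes was not tested.

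**Figure D2:**
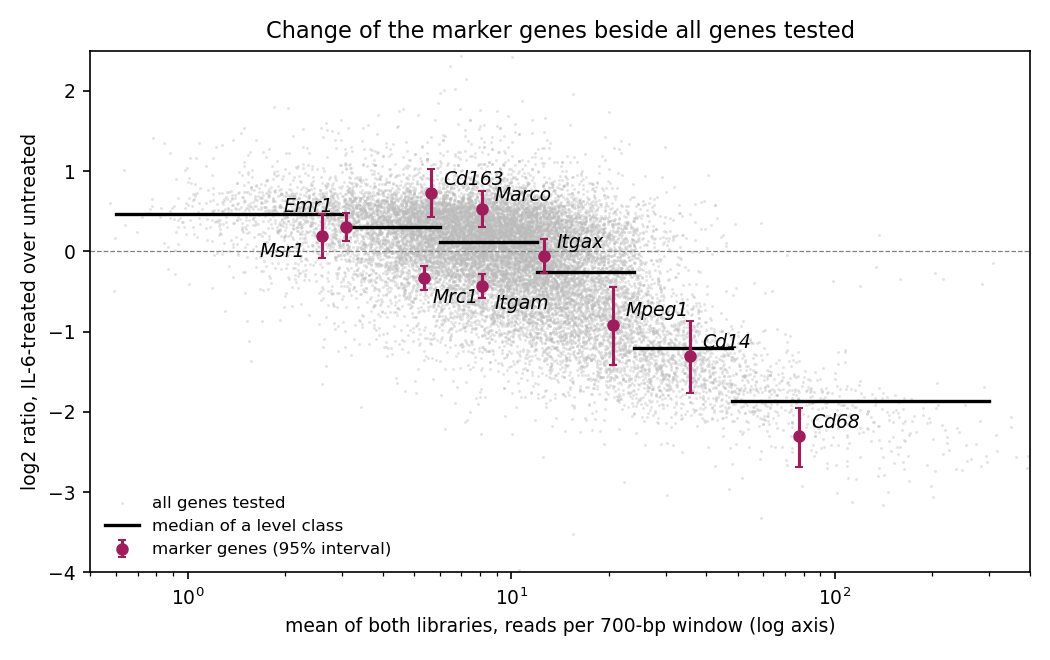
Log2 ratio of IL-6-treated to untreated cells against the mean signal of both libraries (reads per 700-bp window, log axis). Grey points are the 18472 genes tested, of which 27 lie outside the axes, black lines are the median of each level class, and the marker genes carry 95% intervals of the ratio. The black lines step down from 0.47 to -1.87, Cd14 and Emr1 lie close to them, Cd163, Marco and Itgax lie above them and Mrc1, Itgam, Mpeg1, Msr1 and Cd68 below. Strong-window scaling would raise all log2 ratios by 1.83 and leave the vertical distances between points. It would also move the points to the right by unequal amounts, which is not drawn.

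The sequence just upstream of the transcription start site lies inside the listed windows for 5 of the genes over its full 200 bases. It is shown for these genes because it belongs to the chromatin that was measured, for 3 genes with lower and 2 with higher signal after IL-6 in the scaling of the table (*Cd68* alone is lower with strong-window scaling). Sequences are from NCBIM37 and read 5′ to 3′ on the strand of the gene, ending 1 base before the start site. Capitals mark matches on either strand to GAGGAA (core of PU.1 sites), TGANTCA (AP-1) and TTGCNNAA (C/EBP). The regions are chr11:69479656-69479855 (*Cd68*, minus strand), chr7:135205954-135206153 (*Itgam*, plus), chr2:14150841-14151040 (*Mrc1*, plus), chr6:124254469-124254668 (*Cd163*, plus) and chr1:122401662-122401861 (*Marco*, minus).
Cd68: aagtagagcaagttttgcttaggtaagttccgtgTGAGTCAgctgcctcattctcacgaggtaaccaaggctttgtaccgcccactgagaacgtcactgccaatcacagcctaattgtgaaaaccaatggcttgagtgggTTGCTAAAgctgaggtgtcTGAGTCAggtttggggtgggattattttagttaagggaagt
Itgam: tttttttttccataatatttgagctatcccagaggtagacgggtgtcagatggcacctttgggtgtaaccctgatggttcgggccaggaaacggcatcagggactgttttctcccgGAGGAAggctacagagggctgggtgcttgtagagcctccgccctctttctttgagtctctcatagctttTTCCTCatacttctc
Mrc1: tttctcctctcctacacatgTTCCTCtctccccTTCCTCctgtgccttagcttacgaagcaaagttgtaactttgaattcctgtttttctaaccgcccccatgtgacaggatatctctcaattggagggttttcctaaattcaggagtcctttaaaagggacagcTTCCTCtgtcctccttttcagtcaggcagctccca
Cd163: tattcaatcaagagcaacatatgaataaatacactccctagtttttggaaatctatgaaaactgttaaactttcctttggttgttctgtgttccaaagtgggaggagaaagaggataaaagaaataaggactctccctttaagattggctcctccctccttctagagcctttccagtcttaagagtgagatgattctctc
Marco: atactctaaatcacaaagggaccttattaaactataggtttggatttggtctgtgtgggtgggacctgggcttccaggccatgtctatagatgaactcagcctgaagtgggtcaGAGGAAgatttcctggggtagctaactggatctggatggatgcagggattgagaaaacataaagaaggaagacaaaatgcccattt

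GAGGAA was found 2 times at *Itgam*, 84 and 15 bases before the start site, 3 times at *Mrc1* and 1 time at *Marco*. Of all 10 genes 3 held it, against 18.9% of 22220 upstream sequences of the same length. TGANTCA was found upstream of *Cd68*, *Cd14* and *Itgax*, against 4.80% of all genes. The *Cd68* sequence had 2 matches, 166 and 41 bases before the start site, and 1 match to TTGCNNAA, which was found at *Emr1* as well and at 7.18% of all genes. TATAAA was found at none of the 10 genes and at 10.1% of all genes. No matches overlapped. The upstream sequences had a GC content of 33.5% to 54.5%, under the median of 55.5% over all genes at each of the 10.

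*Cd68* encodes a heavily glycosylated lysosome-associated membrane protein. On NCBIM37 it occupies chromosome 11 from 69477715 to 69479655 (minus strand), and its coding span of 6 exons touches 3 windows from 69477801 to 69479900, which include the transcription start site. These windows held 387 reads in untreated and 75 in IL-6-treated cells, a ratio of 0.201 (95% interval 0.155 to 0.258) and a log2 ratio of -2.31. The mean and the SD of so few windows fix the reads of each. In untreated cells the windows held 358, 18 and 11 reads, so that 1 window had 92.5% of the reads of the gene. In IL-6-treated cells they held 61, 10 and 4 reads, and the strongest had 81.3%. The table does not give the order of the windows, so the strongest cannot be placed at the promoter or elsewhere. The strongest window had a ratio of 0.177 (0.133 to 0.233), if it is the same in both libraries. The other 2 windows together went from 29 to 14 reads, a ratio of 0.501 (0.245 to 0.979). The nearest listed genes were lower too. *Eif4a1*, which encodes a translation initiation factor and has its span 1.41 kb away, had a ratio of 0.231 (0.187 to 0.283). *Mpdu1*, 1.81 kb away on the other side, had a ratio of 0.325 (0.249 to 0.421).

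*Cd14*, the co-receptor for lipopolysaccharide, occupies chromosome 18 from 36884728 to 36886390 (minus strand). Its 3 windows held 152 reads in untreated and 59 in IL-6-treated cells, a ratio of 0.403 (0.293 to 0.548). In untreated cells the reads were either 88, 50 and 14 or 74, 70 and 8, since both sets give the listed mean and SD. In IL-6-treated cells they were 36, 16 and 7. The study detected hypersensitive sites by a count above 21 reads, without stating the window or library for that count. The strongest *Cd14* window had more than 21 reads in both libraries. Whether a site was called there, or at the other genes, is not known. The nearest gene, *Tmco6*, 8.68 kb away, had a ratio of 0.386 (0.332 to 0.448). *E230025N22Rik*, 29.4 kb away on the other side, had a ratio of 0.734 (0.589 to 0.913).

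*Mpeg1* encodes perforin-2, a pore-forming protein of macrophage vesicles. It occupies chromosome 19 from 12535269 to 12539774 (plus strand), and its 1 coding exon touches 4 windows that begin downstream of the transcription start site. They held 108 reads in untreated and 55 in IL-6-treated cells, a ratio of 0.529 (0.375 to 0.738). The signal was spread over all 4 windows. The strongest had 33 to 44 reads in untreated cells. In IL-6-treated cells the windows held 16, 14, 13 and 12 reads, so none of them passed 21, scaled or not. *Dtx4*, 6.13 kb downstream, had a ratio of 0.972 (0.859 to 1.10), and *Pfpl*, 30.5 kb upstream, one of 0.779 (0.398 to 1.496).

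The genes of the integrin alpha chains lie next to each other on chromosome 7. *Itgam* (CD11b, the alpha chain of complement receptor 3) covers 135206154 to 135271674 and *Itgax* (CD11c, the alpha chain of complement receptor 4) covers 135273061 to 135294171, both on the plus strand. Over 93 windows *Itgam* held 864 reads in untreated and 619 in IL-6-treated cells, a ratio of 0.744 (0.670 to 0.826). Over 30 windows *Itgax* held 387 and 357 reads, a ratio of 0.958 (0.827 to 1.11). The intervals of the pair came close to each other but did not overlap. With its shortest listed span of 13 windows to stand for the gene, *Itgam* held 141 and 112 reads, a ratio of 0.825 (0.638 to 1.06), which includes 1 and overlaps the interval of *Itgax*. *Itgad*, the next integrin gene of the cluster, 4.58 kb beyond *Itgax*, held 1094 and 598 reads, a ratio of 0.567 (0.513 to 0.628). *Itgax* thus had the highest ratio of the 3 integrin genes. *Trim72*, 52.3 kb from *Itgam* on its other side, had a ratio of 1.26 (0.956 to 1.65).

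The 10 listed *Itgam* transcripts have 5 different spans, and their differences give the reads of separate stretches. The first 12 windows, from -0.453 to 7.95 kb relative to the transcription start site, held 133 reads in untreated and 105 in IL-6-treated cells, a ratio of 0.820 (0.628 to 1.07). The 64 windows from 8.65 to 53.4 kb held 613 and 426 reads, a ratio of 0.721 (0.636 to 0.818). The last 14 windows held 84 and 59 reads, a ratio of 0.729 (0.514 to 1.03). These intervals overlapped, and differences between the stretches of *Itgam* were not tested. The strongest window of untreated cells could be placed. In the 64 windows of the gene body at least 1 window had 45 reads or more, whereas no window of the first 12 had over 35 and none of the last 14 had over 42. The strongest DNase I signal at *Itgam* in untreated cells was therefore inside the gene and not in the windows at its start. In IL-6-treated cells the strongest window of the gene body had 16 to 67 reads and that of the first 12 windows 16 to 34, and the order was not resolved.

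**Figure D3:**
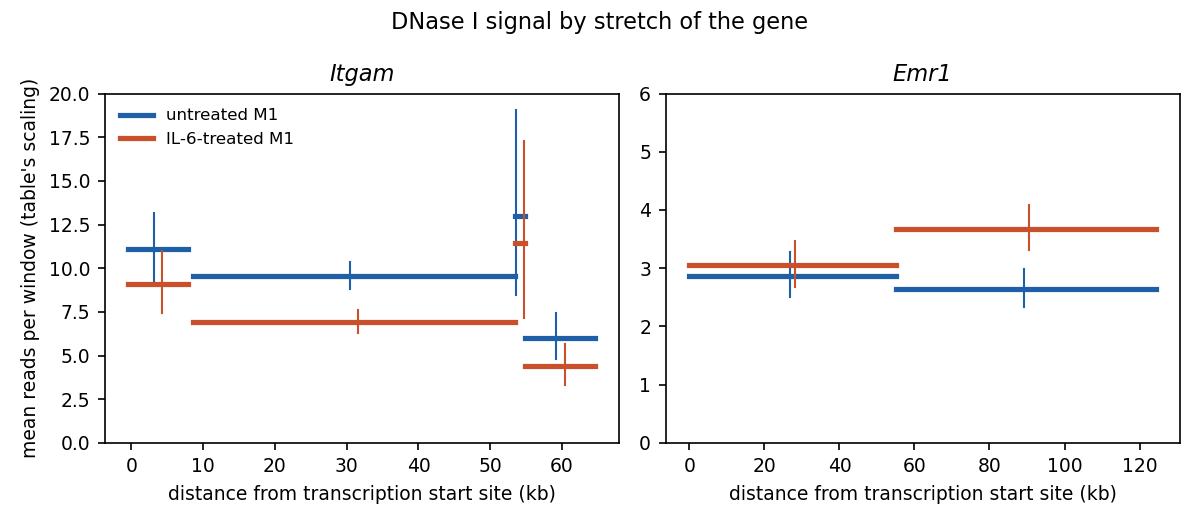
Mean reads per 700-bp window along Itgam (left) and Emr1 (right) by distance from the transcription start site in kb, for untreated (blue) and IL-6-treated (orange) cells. Horizontal lines are stretches that the listed spans resolve (1 stretch of a single window is left out) and vertical lines are 95% Poisson intervals. At Itgam the orange line lies below the blue one in each stretch drawn, and at Emr1 the intervals are apart in the 3′ stretch (2.65 against 3.68), in the scaling of the table (with strong-window scaling the Itgam order turns).

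*Mrc1*, the mannose receptor, occupies chromosome 2 from 14151041 to 14253684 (plus strand), with 30 coding exons. Its 147 windows held 881 reads in untreated and 675 in IL-6-treated cells, a ratio of 0.795 (0.718 to 0.880). Of the 10 genes it had the most uneven signal in untreated cells, with an SD between windows of 15.0 at a mean of 5.99. Its strongest window had between 44 and 186 reads. In IL-6-treated cells the SD was 4.36 at a mean of 4.77 scaled reads, and the strongest window had between 9 and 55 reads. *Fam23a*, 10.1 kb upstream, had a ratio of 0.771 (0.673 to 0.883), and *Slc39a12*, 58.1 kb downstream, one of 1.29 (1.13 to 1.47).

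*Cd163*, the scavenger receptor for hemoglobin bound to haptoglobin, occupies chromosome 6 from 124254669 to 124280545 (plus strand). Its 37 windows held 157 reads in untreated and 250 in IL-6-treated cells. The ratio of 1.65 (1.35 to 2.03) was the highest among the 10 genes, and its log2 ratio of 0.72 was above that of 94.6% of all genes tested. Signal was low and even, with SDs between windows of 3.47 and 4.70, and no window had more than 24 reads in untreated or more than 33 in IL-6-treated cells. The last window, resolved by the second span, held 2 and 4 reads. The neighboring *1700013D24Rik*, 18.1 kb away, had a ratio of 1.85 (1.27 to 2.72), and *Vmn2r27*, on the other side, one of 0.923 (0.716 to 1.19).

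*Marco* and *Msr1* encode class A scavenger receptors, collagen-like trimers that bind modified lipoproteins and bacteria. *Marco* occupies chromosome 1 from 122371115 to 122401661 (minus strand). Its 44 windows held 292 reads in untreated and 405 in IL-6-treated cells, a ratio of 1.44 (1.24 to 1.68), and the SD between windows was 4.63 and 7.26. *Msr1* occupies chromosome 8 from 40667054 to 40728032 (minus strand). Its 88 windows held 214 and 235 reads, a ratio of 1.14 (0.943 to 1.38), so that a difference was not detectable at this depth. With its shortest listed span of 42 windows to stand for the gene, the ratio was 0.958 (0.731 to 1.26). The intervals of *Marco* and *Msr1* overlapped. Although *Msr1* had little signal, it was uneven in untreated cells. A stretch of 42 windows from 5.53 to 34.9 kb downstream of the transcription start site had at least 1 window with 18 reads or more. The 35 windows toward the 3′ end had none over 16, and the 11 remaining windows, which include the start of the gene, had none over 5. In IL-6-treated cells the same 42 windows had a strongest window of 6 to 21 reads. The nearest genes of *Msr1*, 417 and 637 kb away, were lower, with ratios of 0.770 (0.706 to 0.840) for *Tusc3* and 0.657 (0.542 to 0.794) for *Fgf20*. Those of *Marco*, *C1ql2* (1.16) and *En1* (1.19), held few reads and had intervals that include 1.

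*Emr1* occupies chromosome 17 from 57498109 to 57622952 (plus strand) and has the longest span of the 10 genes. Its 178 windows held 489 reads in untreated and 583 in IL-6-treated cells, a ratio of 1.24 (1.10 to 1.40). Shorter transcripts divide the gene. The 79 windows at the 5′ end, up to 55.2 kb from the start, held 227 and 232 reads, a ratio of 1.06 (0.880 to 1.28). The 99 windows at the 3′ end held 262 and 351 reads, a ratio of 1.39 (1.18 to 1.64). The interval of the 3′ part excluded 1 and that of the 5′ part did not. The 2 intervals overlapped, which does not decide whether the parts differ, and a difference between them was not tested. With the short span to stand for the gene, the interval includes 1. *Vmn2r120*, 25.7 kb beyond the 3′ end, held 116 and 211 reads, a ratio of 1.89, and *Vav1*, a signaling gene of blood cells 31.0 kb upstream, had one of 0.611 (0.557 to 0.670).

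Signal was less uneven in IL-6-treated cells along most genes tested, and the marker genes had a similar share. Relative to the mean, the SD between windows was lower in IL-6-treated cells at 8 of the 10 genes and at 82.2% of all genes tested. *Cd14* and *Marco* were the exceptions. In the scaling of the table, bounds on the strongest window did not overlap between libraries at *Cd68*, *Cd14* and *Mpeg1*. They overlapped at the other 7 genes. The 3 genes without overlap have spans of 3 or 4 windows, whose reads the mean and SD fix closely, against 30 to 178 windows at the others. The share of all genes without overlap was not computed, so the split is not a result about the marker genes. With strong-window scaling the order turns at *Cd14* and *Mpeg1*.

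**Figure D4:**
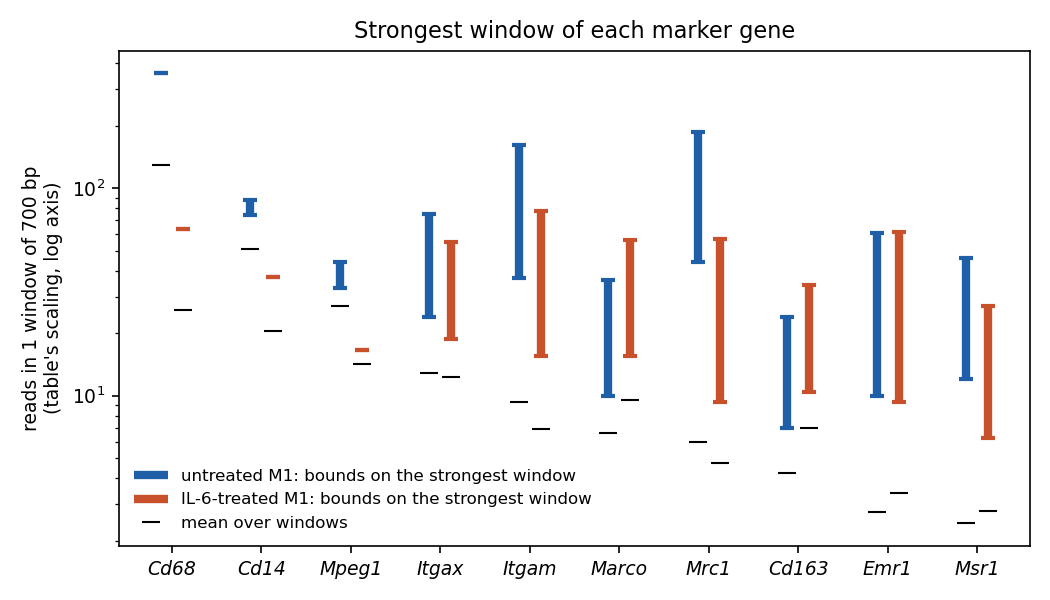
Lowest and highest number of reads that the strongest 700-bp window of each gene can have, given the listed mean and SD, for untreated (blue) and IL-6-treated (orange) cells on a log axis with the scaling of the table. Black dashes are means over windows, and a single colored dash is a value fixed exactly (358 against 63.3 at Cd68). Blue and orange bounds are apart at Cd68, Cd14 and Mpeg1, the genes with the shortest spans, and overlap elsewhere.

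Related genes were compared in 7 lists, which hold partners and relatives of the marker genes. Of 57 related genes tested, 21 had an interval wholly below 1 and 17 wholly above 1, against 34.4% and 29.0% of all genes tested, and the median log2 ratio was 0.02 (0.03 over all genes tested). At least 2-fold lower signal was found for 5 of them (8.77%, against 13.4% of all genes tested), which were *Cd97*, *Gpr97*, *Fcer1g*, *Fcgr1* and *Tyrobp*, and at least 2-fold higher signal for *Cxcl16* alone, at 9 and 25 reads. *Gpr97*, *Fcgr1*, *Tyrobp* and *Cxcl16* were named after their values were seen. Among 9 integrins of leukocytes and integrin ligands, which include chains of the beta-1 and beta-7 families, 5 were below 1 (*Itgad*, *Icam1*, *Itga4*, *Itga5* and *Itgb7*) and 1 above (*Itgal*). The lowest was *Itgb7*, a beta-7 chain that does not pair with *Itgam* or *Itgax* (log2 ratio -0.85), and the highest *Icam2*, a ligand of beta-2 integrins (0.36). *Itgb2*, the beta chain shared by *Itgam* and *Itgax*, held 388 and 396 reads, a ratio of 1.06 (0.919 to 1.22). Among 11 scavenger receptors and related genes 7 were above 1 and 3 below. A difference between these lists was not tested, and their median level in untreated cells was 14.3 reads per window for the integrin list and 8.06 for the scavenger receptor list. *Cd5l*, a secreted scavenger protein of macrophages, had the highest value of those with at least 100 reads (0.71, 122 to 192 reads) and *Scarb2* the lowest (-0.61). The mannose receptor family and myeloid lectins (9 genes) had 3 above and 1 below, from *Cd209a* (0.96, 36 to 68 reads) to *Clec4d* (-0.72).

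The 5 adhesion G protein-coupled receptors, 2 below 1 and 2 above, ranged widely. *Emr4*, a close relative of *Emr1*, held 206 reads in untreated and 391 in IL-6-treated cells (log2 ratio 0.98), whereas *Cd97* held 1745 and 518 (-1.70). *Cd97* had 69.8 reads per window in untreated cells and *Emr4* 1.55. In lipopolysaccharide recognition 3 of 5 genes were below 1 and 1 above, from *Ly96*, the partner of Toll-like receptor 4 (-0.77), to *Tlr4* itself (0.22). Of a list of lysosome-associated membrane genes 4 were found, 1 of which, *Cd63*, is not a *Lamp* gene and held only 24 reads in each library. All 4 had intervals that include 1, from *Lamp2* (-0.26) to *Lamp3* (0.07), unlike *Cd68*. In untreated cells these 4 genes had 1.97 to 11.1 reads per window, against 129 at *Cd68*. Log2 ratios fell with level in the whole table, and the part of level in this contrast was not tested. Of 14 other macrophage surface genes tested, 7 were below 1 and 3 above. *Timd4*, a receptor for phosphatidylserine, was the highest (0.75, 202 to 327 reads), and *Fcer1g*, the signaling chain of Fc receptors, was the lowest (-1.27, 288 to 115 reads).

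Genes of other cell types were listed for comparison. In untreated cells the median level was 6.78 reads per window for 4 T cell genes and 7.69 for 4 B cell genes, 5.61 for 4 erythroid genes, 4.85 for 3 liver genes and 7.96 for the marker genes. Single genes of these lists reached 16.0 (*Epor*) and 21.7 (*Apoa1*), named after their values were seen. Median log2 ratios were 0.40 for T cell, 0.43 for B cell, 0.29 for 3 erythroid and 0.20 for 3 liver genes tested, and 1 gene of each of these lists had an interval above 1 and 0 below. They were -0.67 for 8 myeloid progenitor genes (4 below 1 and 2 above, from *Prtn3* at -1.42 to *Kit* at 0.41) and -1.12 for 10 genes that all cells use, 8 of which had intervals below 1. Of all genes tested, 34.4% were below 1 and 29.0% above. The median level in untreated cells was 14.6 reads per window for the progenitor genes and 12.5 for the genes that all cells use. Both were higher than for the T cell, B cell, erythroid and liver lists and the marker genes. The part of level in these medians was not tested. The lower values at *Cd68*, *Cd14* and *Mpeg1* thus stand beside lower values at genes such as *Gapdh* (436 and 99 reads, log2 ratio -2.08), and the part of library quality in them was not tested. An effect of IL-6 and a difference between single libraries cannot be told apart here.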

How the data were processed

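DHS-seq data of 1 untreated and 1 IL-6-treated M1 library were used. Adaptors and poor bases were removed by the authors before alignment with BWA to NCBIM37, and per the file headers they deposited signal values as the mean and SD over windows for 55432 transcripts. Window borders at multiples of 700 bp gave the listed number of windows in 100% of rows. Reads were recovered as the mean times the number of windows, divided by the worth of 1 read (1 in untreated and 1.038 in IL-6-treated cells), and 100% of products were within 0.05 of a whole number. The representative spans held about 9.33e+06 and 8.70e+06 reads, with overlapping genes counted more than once.

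The row with most windows stood for a gene. Ratios kept the scaling of the table, log2 ratios had 0.5 reads added, and genes with more than 21 scaled reads in either library were tested by fold and interval. A count of 0 would allow up to 3 reads. Stretches and bounds on the strongest window came from sums and sums of squares, and recovery was tested on simulated data. The members and lists were chosen with earlier results of these data known. Named genes are all members, their nearest neighbors and the highest and lowest gene with at least 100 reads of each list. *Itgb2*, *Itgal*, *Icam1*, *Itga4*, *Itga5*, *Gpr97*, *Fcgr1*, *Tyrobp*, *Cxcl16* and *Cd63* were added after their values were seen. One empty column was not used. Gene models were from GENCODE M1. With 2 libraries no likeness of pattern was computed. Alternatives covered scaling, reads added, the row, the filter and the fold. Signal beyond the listed windows is not analyzed here. Python 3.11.15, numpy 2.4.6, pandas 2.3.3, scipy 1.17.1 and matplotlib 3.10.9 were used.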

Additional observations from a re-analysis of the deposited data

How the results depend on the processing

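No paired analysis was possible because there was 1 library of untreated and 1 of treated cells. The 17 results were recomputed 153 times in all: 129 values kept within limits, 20 moved further and 4 reversed. The limit was the reported interval for single genes and 1.5 times for counts. For the median log2 ratio it was the median distance from the middle to the end of the marker gene intervals, on the log2 scale. No scaling, the total over coding spans, the median of ratios over genes and the trimmed mean left every value of the marker genes within these limits. These settings differ little from the scaling of the table and shift log2 ratios by only -0.05 to 0.04. Shifts of this size are smaller than the intervals of the marker genes, so they could not move these values. The scaling on strong single windows, chosen after seeing the data, multiplied IL-6 reads by 3.68 in place of 1.038. All 17 results moved or reversed with this scaling. With it the log2 ratios of *Itgam* (1.40), *Cd14* (0.51), *Mpeg1* (0.90) and *Mrc1* (1.495) reversed, the median was 1.63, 2-fold lower marker genes numbered 0 and 2-fold higher ones 7, and 1 was below and 9 were above a ratio of 1 by interval. Among all genes, 18 were at least 2-fold lower and 17655 higher. By its construction this sets the windows that are strong in both libraries to no change. A fold of at least 1.5 gave 4289 lower and 2000 higher genes in place of 2477 and 313, and 1 higher marker gene. Higher genes numbered 161 with 5 reads added, 1090 without a filter on low values and 97 with more than 50 reads. The row with fewest windows gave *Emr1* a log2 ratio of 0.09 in place of 0.31. The row with fewest windows or with the highest mean gave *Itgam* -0.28 in place of -0.43, with an interval that includes 1, so that 4 marker genes in place of 5 were below 1. The same choices gave *Msr1* -0.06 in place of 0.19, with intervals that include 1. Nothing here has a biological replicate.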
